A study of Mus musculus with 15 samples.

Results

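Integrins are the main cell surface receptors for the extracellular matrix, and laminins are the cross-shaped glycoproteins that build the basement membranes to which many integrins bind. The transcripts described here are all genes in the deposited table whose symbol marks an integrin alpha chain (Itga followed by a number or letters), an integrin beta chain (Itgb and a number) or a laminin alpha, beta or gamma chain (Lama, Lamb or Lamc and a number). These rules found 33 genes of 14237 listed, and all 33 were among the 14194 genes tested. They comprised 17 integrin alpha chains, 7 integrin beta chains, 5 laminin alpha chains, 2 laminin beta chains and 2 laminin gamma chains. The GENCODE M21 mouse annotation holds 37 protein-coding genes of these names, and Itgad, Itgb6, Lamb3 and Lamc3 were not among the listed genes. The rule uses gene symbols and no measured value.

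An integrin is a pair of 1 alpha and 1 beta chain, and the pair decides the ligand: pairs of Itgb1 with Itga3, Itga6 or Itga7, and Itga6 with Itgb4, bind laminin, pairs with Itgav and Itga5 bind fibronectin, vitronectin and related proteins, and pairs with Itgb2 or Itgb7 are found on leukocytes. A laminin is a trimer of an alpha, a beta and a gamma chain, secreted mainly by cells that sit on a basement membrane. In the optic nerve, basement membranes surround the vessels and line the surface where astrocytes meet the connective tissue sheath, and laminin is known as a substrate on which the axons of retinal ganglion cells can grow.

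The study sequenced optic nerve RNA from C57BL/6J adults. Each of 3 groups held 5 libraries that the labels call biological replicates and number from 2 to 6, taken here as separate animals. Every eye had received an adeno-associated virus of serotype 2 (AAV2) in the vitreous. The sham group received the AAV-null control vector and had the nerve exposed without crush, the crush AAV-null group received the same vector and a crush of the nerve, and the crush AAV-CNTF group received a vector for a secreted form of ciliary neurotrophic factor (CNTF), a cytokine, and a crush. The crush followed the injection by 2 weeks and the nerves were collected 7 days later, while the labels give no times for the sham group. The vector was delivered to the eye and the RNA came from the nerve, so the level of Cntf in these libraries does not check the labels.

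The listed genes held 19856705 to 29558299 rounded expected counts per library, and no pair of libraries of a group was a duplicate. Levels of 1 gene are compared between groups as CPM (counts scaled to a common library total) on library sizes normalized by the trimmed mean of M values, and levels of different genes only as FPKM, which divides by transcript length. The 8 oligodendrocyte markers summed to 23431 to 29688 CPM in the sham libraries, and all 8 were lower after crush with AAV-null. Of the 8 astrocyte markers 7 were lower. These calls are at an adjusted p under 0.05 in the edgeR test given below, where 14.7% of all genes tested were higher and 12.9% lower. Of 10 leukocyte and myeloid markers 9 were higher, with sums of 703 to 968 CPM in sham, 2497 to 3658 in crush AAV-null and 2204 to 3082 in crush AAV-CNTF, and none of the 10 had a count of 0 in any library. Because the whole nerve was measured, fewer cells of a type and less RNA per cell cannot be told apart. The 7 tested skeletal muscle markers summed to 85.8 to 743 CPM in sham, highest in sham replicate 5, against 23.9 to 214 and 13.9 to 145 CPM in the crush groups, and their part in the results below was tested only by a fit with the level of these markers as a covariate.

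In the sham nerve the most abundant integrin transcript per length was Itgb4, at 84.3 ± 13.1 FPKM (SD, n = 5). Itgb1, the beta chain with the largest number of partners, followed at 73.1 ± 18.7 FPKM, and Itgav, an alpha chain that pairs with several beta chains, at 68.3 ± 12.4 FPKM. Lamb2 reached 65.8 ± 31.6 FPKM and Lamc1, the gamma chain of most laminins, 43.8 ± 6.37 FPKM. The ranges of these neighbours in the order overlapped between libraries, so the order among them is not fixed by these data. Itgb8, which pairs with Itgav, stood at 35.2 ± 4.98 FPKM, Itgb5, another partner of Itgav, at 30.7 ± 6.52 FPKM, Itga6 at 26.3 ± 2.88 FPKM and Itgam, a chain of myeloid cells, at 26.0 ± 12.2 FPKM. The least abundant were Itgae at 0.418 FPKM, Lama3 at 0.676 FPKM, Itgb7 at 0.706 FPKM and Itga2 at 0.926 FPKM.

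The first comparison asked what crush changed in nerves whose eyes had the control vector. After crush with AAV-null 12 of the 33 genes were higher than in sham and 4 were lower at an adjusted p under 0.05 (edgeR quasi-likelihood test, Benjamini-Hochberg adjustment over all genes tested), and 17 did not pass. Over all genes tested 14.7% were higher and 12.9% lower in this comparison, 27.6% in all. The median log2 fold change was 0.397 over the 33 genes and 0.005 over all genes. The 5 crush libraries all lay above the 5 sham libraries for 10 of the 33 genes and below them for 3, against 10.5% and 10.1% of all genes. Among the integrin alpha chains 5 of 17 rose and none fell, and among the beta chains 4 of 7 rose and 2 fell. Of the laminin chains, 3 of 9 rose (Lama4, Lamb1 and Lamc1) and 2 fell (Lama1 and Lama5). The map of these genes by library shows these blocks.

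**Figure D1:**
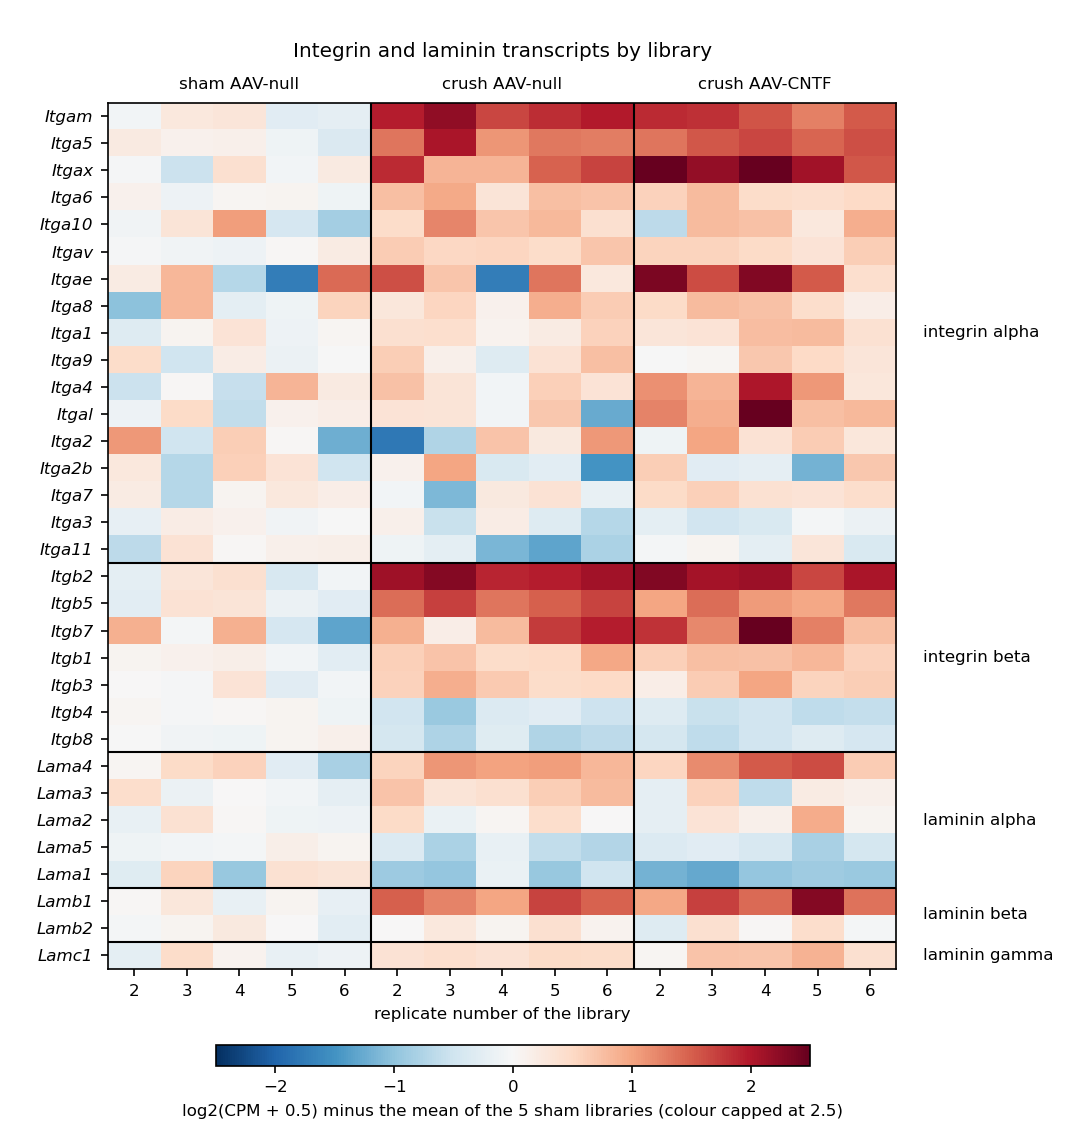
Each cell is the log2(CPM + 0.5) of 1 gene (row) in 1 library (column) minus the mean of the 5 sham libraries, with genes ordered within each chain class by their change after crush and with colour capped at 2.5. Itgam, Itga5, Itgax, Itgb2, Itgb5 and Lamb1 are red in all 10 crush libraries, and Itgb4, Itgb8 and Lama5 are blue in all 10.

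The largest increases were those of Itgb2 and Itgam, chains of leukocytes, and Itgax, which pairs with Itgb2, rose with them. Itgb2, the beta chain shared by the leukocyte integrins, was at 20.8, 30.6, 32.5, 18.6 and 23.6 CPM in sham replicates 2, 3, 4, 5 and 6, and at 108, 123, 93.2, 97.8 and 107 CPM in the same order after crush with AAV-null. Its log2 fold change was 2.07 ± 0.15 (SE; adjusted p = 4.17e-09). The lowest crush library was far above the highest sham library. Itgam, which pairs with Itgb2 on microglia, macrophages and neutrophils and binds complement fragments and fibrinogen, was at 55.9, 70.4, 72.0, 47.6 and 49.6 CPM in sham and at 228, 273, 186, 210 and 231 CPM after crush. It rose by 1.93 ± 0.14 on the log2 scale (adjusted p = 4.09e-09), again without overlap. Itgax, found on dendritic cells and activated microglia, was at 10.045, 6.88, 13.7, 9.71 and 12.1 CPM in sham and at 38.8, 18.8, 18.9, 29.5 and 34.2 CPM after crush. It rose by 1.42 ± 0.24 (adjusted p = 0.000114), with the crush libraries of replicates 3 and 4 nearest to the sham range.

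The other 4 chains known mainly from leukocytes did not pass the test after crush with AAV-null. Itgal, the partner of Itgb2 on lymphocytes, had a log2 fold change of 0.09 (95% interval -0.72 to 0.90). The values were 0.31 (-0.28 to 0.91) for Itga4, which pairs with Itgb1 or Itgb7 and binds Vcam1, 1.22 (-0.05 to 2.49) for Itgb7 and 0.52 (-1.44 to 2.48) for Itgae. Itgb7 and Itgae were low, at means of 1.88 and 1.66 CPM in sham, and their intervals reach past a 2-fold change. The myeloid marker sum rose with Itgb2, Itgam and Itgax as given above, the T and NK cell marker sum was 11.3 to 29.6 CPM in sham and 5.87 to 16.9 CPM after crush with AAV-null, and the part of these cells in the integrin values was not tested. Itgam and Itgax lie 11055 bases apart on chromosome 7. In the annotation 3450 exon bases of Itgam are shared with Gm49368 on the same strand, which was not among the listed genes, so reads over those bases cannot be told apart from Itgam.

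**Figure D2:**
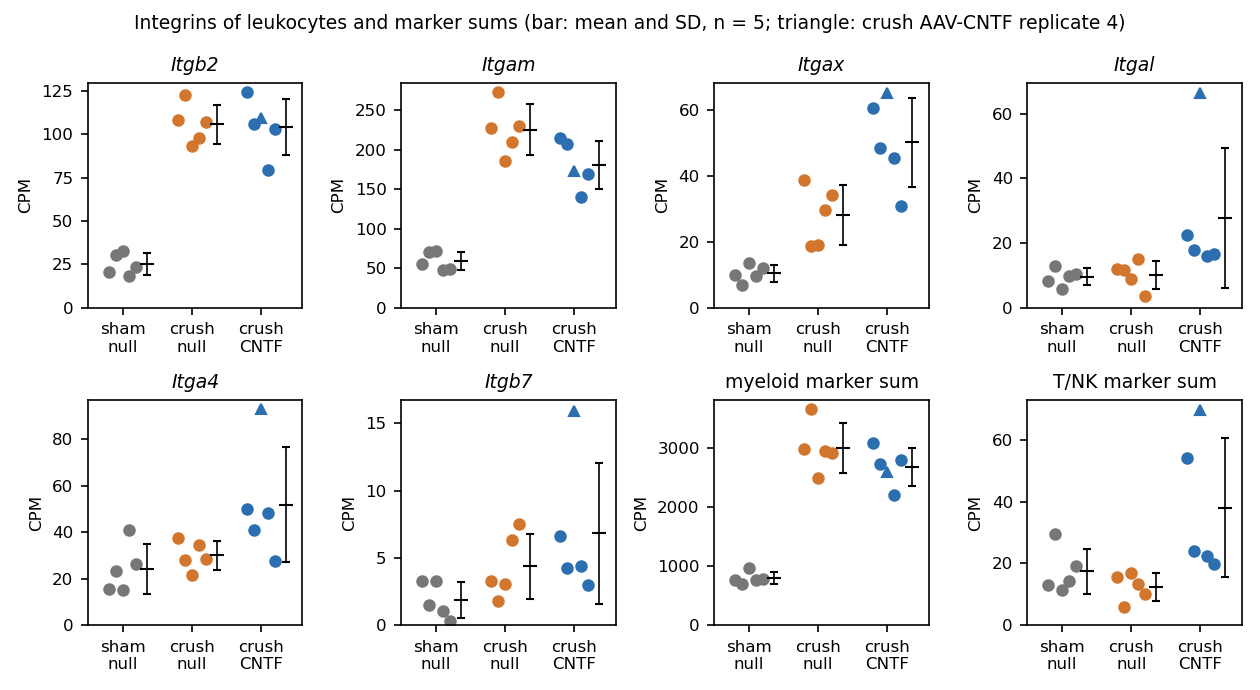
Points are CPM (vertical axis, linear from 0) per library in the 3 groups on the horizontal axis, with the mean and SD of 5 libraries as the bar and crush AAV-CNTF replicate 4 as a triangle. Itgb2, Itgam and Itgax are higher in all 10 crush libraries than in any sham library, while replicate 4 stands alone at 66.3 CPM of Itgal and has the highest T and NK marker sum, 69.9 CPM.

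Of the 33 genes 6 rose at least 2-fold after crush with AAV-null: Itgb2, Itgam, Itgb5, Itga5, Itgax and Lamb1. The sequences just upstream of their starts are shown because these genes moved together, so that the letters there can be compared. They come from RefSeq on GRCm38.p6, whose promoter table holds 22 windows for 21 of the 33 genes, and Itgb2 is not among them. Each is printed 5′ to 3′ on the strand of its gene, from 250 bases before the RefSeq start and no further than the base before the GENCODE M21 model of the gene. Capitals mark GAGGAA (the core letters bound by PU.1, a factor of myeloid cells), TGANTCA (AP-1) and GGGCGG (the GC box of Sp1), each on either strand, so that TTCCTC and CCGCCC are marked too. The windows are Itgam at chr7:128062390-128062639 on the plus strand, Itgax at chr7:128129300-128129546 on the plus strand, Itgb5 at chr16:33829415-33829664 on the plus strand, Itga5 at chr15:103366792-103367041 on the minus strand and Lamb1 at chr12:31265043-31265233 on the plus strand.
Itgam: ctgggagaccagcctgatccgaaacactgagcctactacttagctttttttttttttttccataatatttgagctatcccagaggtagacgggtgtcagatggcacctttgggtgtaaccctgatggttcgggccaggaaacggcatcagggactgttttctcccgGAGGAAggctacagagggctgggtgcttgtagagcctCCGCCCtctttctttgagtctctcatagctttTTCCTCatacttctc
Itgax: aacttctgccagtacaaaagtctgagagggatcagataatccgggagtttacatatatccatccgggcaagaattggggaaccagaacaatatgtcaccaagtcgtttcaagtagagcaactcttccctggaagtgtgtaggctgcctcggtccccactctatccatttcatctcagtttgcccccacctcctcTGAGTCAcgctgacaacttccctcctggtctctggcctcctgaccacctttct
Itgb5: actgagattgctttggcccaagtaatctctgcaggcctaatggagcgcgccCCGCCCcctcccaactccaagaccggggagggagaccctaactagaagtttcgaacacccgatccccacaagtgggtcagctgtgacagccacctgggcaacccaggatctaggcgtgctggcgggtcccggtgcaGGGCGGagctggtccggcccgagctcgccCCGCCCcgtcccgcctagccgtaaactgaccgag
Itga5: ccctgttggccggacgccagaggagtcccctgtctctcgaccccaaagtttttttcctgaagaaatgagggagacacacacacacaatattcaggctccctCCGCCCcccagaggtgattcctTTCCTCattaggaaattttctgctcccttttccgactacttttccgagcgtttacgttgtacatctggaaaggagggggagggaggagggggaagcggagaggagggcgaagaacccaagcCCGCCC
Lamb1: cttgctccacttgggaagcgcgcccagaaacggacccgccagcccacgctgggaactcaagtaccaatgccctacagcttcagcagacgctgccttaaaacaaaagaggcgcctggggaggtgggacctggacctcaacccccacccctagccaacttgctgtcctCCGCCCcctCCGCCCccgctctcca

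The GAGGAA letters were in 11 of the 22 windows of 250 bases of these families and in 23.3% of all 32851 windows of that length in the table. Itgam had 2 matches, 84 and 15 bases before the start, Itga5 had 1, and Itgax and Itgb5 had none. Windows of Itgav, Itgb1, Lama2 and Lama5 held it too, so these letters were not confined to chains of leukocytes. TGANTCA was found in 1 of the 22 windows, that of Itgax, and in 6.75% of all windows. GGGCGG was found in 9 of the 22 and in 32.7% of all, with 3 matches upstream of Itgb5, 2 each upstream of Itga5 and Lamb1 and 1 upstream of Itgam. Lamb1 had 1 GAGGAA match, which lies in the bases of its window that are not printed. For 20 of the 22 windows the 40 bases after the RefSeq start are found in a GENCODE M21 transcript of the gene, and for Itga5 they are not. Whether a transcript begins at that start was not checked. The 5 windows therefore share no single motif of the 3 searched. A match is a description of the letters, and binding was not measured.

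Among the integrins of other cells, Itgb5, Itga5, Itgav and Itgb3, which take part in receptors for fibronectin or vitronectin, rose, while Itgb8, another partner of Itgav, fell. Itgb5 was at 78.2, 120, 117, 84.4 and 77.3 CPM in sham replicates 2 to 6 and at 247, 309, 238, 264 and 303 CPM after crush with AAV-null. It rose by 1.51 ± 0.14 on the log2 scale (adjusted p = 6.3e-08), and the groups were far apart. Itga5, the alpha chain of the classical fibronectin receptor, was at 33.6, 31.1, 31.4, 26.7 and 22.1 CPM in sham and at 73.5, 120, 62.5, 72.6 and 70.2 CPM after crush. It rose by 1.46 ± 0.16 (adjusted p = 6.72e-07). The crush AAV-null library of replicate 3 was the highest and stood apart from the other 4, and all 5 were above sham. Itgav, the partner of Itgb5, rose by 0.56 ± 0.09 (adjusted p = 3.95e-05), from 206 to 261 CPM over the sham libraries to 310 to 362 CPM over the crush libraries. Itgb3, a further partner of Itgav and also a platelet chain, went from 11.6 to 17.98 CPM on average and rose by 0.63 ± 0.19 (adjusted p = 0.0148). Its call was lost with the muscle marker level as a covariate (0.60, adjusted p = 0.0607).

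The laminin-binding integrins did not move as a block. Itgb1 rose by 0.65 ± 0.11 on the log2 scale (adjusted p = 7.15e-05), from 186 to 249 CPM over the sham libraries to 306 to 440 CPM over the crush AAV-null libraries. Itga6 rose by 0.71 ± 0.11 (adjusted p = 3.83e-05), from 83.3 to 97.3 CPM to 114 to 176 CPM. Itgb4, which pairs only with Itga6 and is best known from hemidesmosomes, fell, in contrast to its partner. It was at 457, 434, 457, 469 and 411 CPM in sham and at 318, 234, 352, 366 and 311 CPM after crush, a log2 fold change of -0.49 ± 0.10 (adjusted p = 0.00105). All 5 crush libraries were below all 5 sham libraries. An antisense gene in the table, B230344G16Rik, shares 537 exon bases with Itgb4, and the sources used here do not say whether counting used the strand. Itga3, Itga7 and Itga1, other alpha chains of laminin or collagen receptors, did not pass the test, at -0.23 (95% interval -0.58 to 0.13), -0.12 (-0.65 to 0.42) and 0.34 (0.0019 to 0.68).

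Itgb8, the partner of Itgav that activates latent TGF-beta and is known from astrocytes and other neural cells, was the other beta chain that fell. It was at 280, 263, 262, 296 and 306 CPM in sham replicates 2 to 6 and at 206, 163, 228, 167 and 178 CPM after crush with AAV-null. The log2 fold change was -0.58 ± 0.10 (adjusted p = 0.000122), with no overlap. Within a library, the ratio of the CPM of Itgb5 to that of Itgb8 was 0.253 to 0.456 in sham and 1.05 to 1.89 after crush with AAV-null, so these partners of Itgav moved apart in every library. The astrocyte marker sum was 7908 to 8770 CPM in sham and 4788 to 6379 CPM after crush, and its part in the fall of Itgb8 was not tested.

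**Figure D3:**
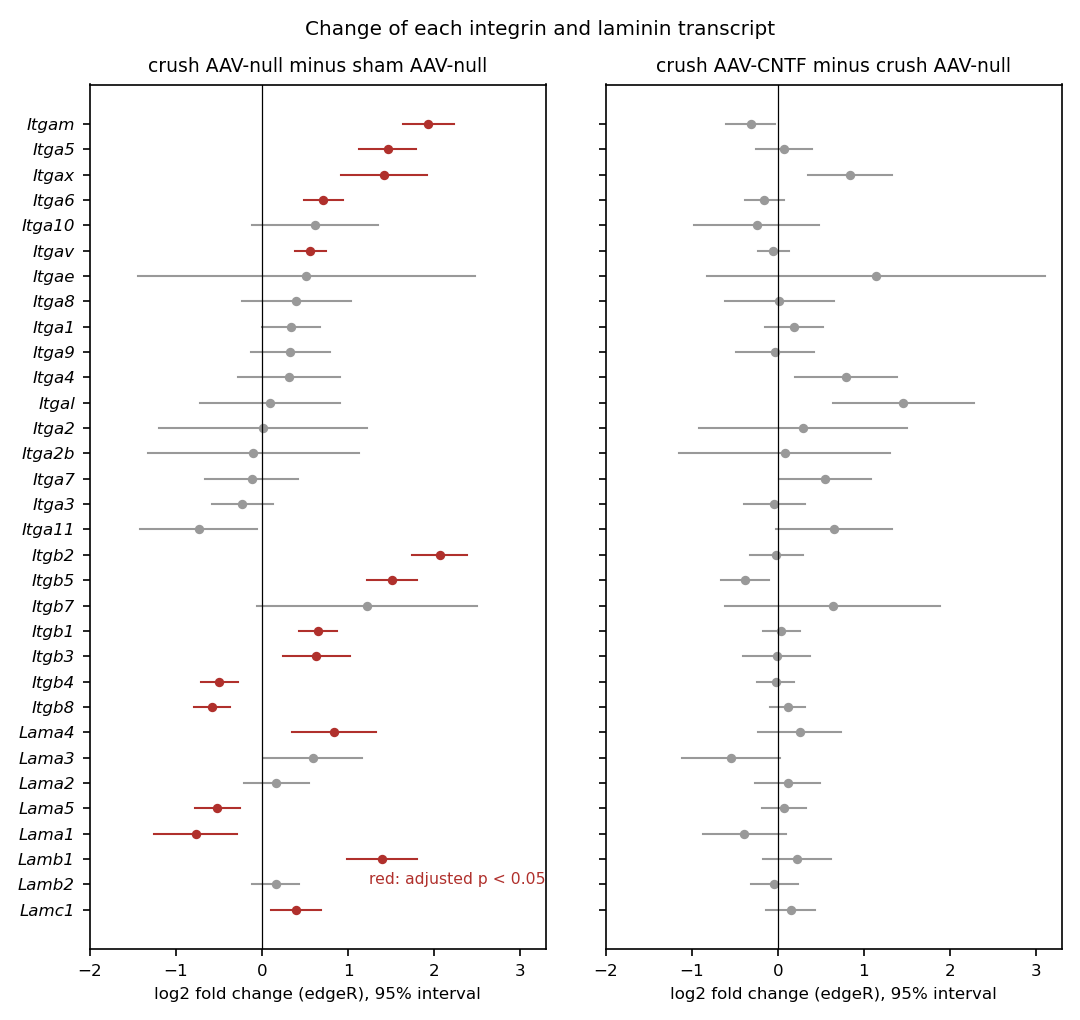
Points are edgeR log2 fold changes (horizontal axis) of each gene (vertical axis) with 95% intervals, for crush AAV-null minus sham on the left and crush AAV-CNTF minus crush AAV-null on the right, in red where the adjusted p was under 0.05. On the left 12 genes are red above 0 and 4 below, and on the right none is red.

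The laminin chains changed unequally. Lamb1, the beta chain of laminins in developing and injured tissue, was at 35.8, 42.6, 30.6, 36.6 and 29.96 CPM in sham replicates 2 to 6 and at 98.7, 82.8, 69.8, 113 and 97.8 CPM after crush with AAV-null. It rose by 1.398 ± 0.19 on the log2 scale (adjusted p = 1.23e-05), without overlap. Lamb2, the beta chain of vascular and pial basement membranes, had a log2 fold change of 0.16 (95% interval -0.11 to 0.43) and did not pass. The Lamb1 to Lamb2 ratio of CPM within a library went from 0.119 to 0.187 in sham to 0.304 to 0.447 after crush. Every crush library had a higher ratio than every sham library.

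Lama4, an alpha chain of vessel walls, was at 55.7, 75.3, 80.4, 44.4 and 30.6 CPM in sham and at 79.3, 116, 108, 112 and 96.9 CPM after crush with AAV-null. It rose by 0.84 ± 0.23 (adjusted p = 0.00945), with the lowest crush library just under the highest sham library. Lamc1 rose by 0.40 ± 0.14 (adjusted p = 0.0371), from 277 to 449 CPM over the sham libraries to 417 to 458 CPM over the crush libraries. Sham replicate 3, at 449 CPM, lay inside the crush range, and the call of Lamc1 was lost without any one of crush AAV-null replicates 3, 5 and 6 or sham replicates 2, 5 and 6 (adjusted p = 0.0609, 0.0732, 0.0677, 0.101, 0.093 and 0.0855). With the muscle marker level as a covariate its log2 fold change was 0.45 (adjusted p = 0.0568).

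Lama1 and Lama5 fell. Lama1, a chain of the pial and retinal surface membranes, was at 36.0, 65.1, 22.7, 57.6 and 55.4 CPM in sham and at 23.4, 22.4, 39.4, 22.7 and 31.4 CPM after crush with AAV-null. Its log2 fold change was -0.76 ± 0.23 (adjusted p = 0.0165), the groups overlapped, with sham replicates 2 and 4 below crush AAV-null replicate 4, and without sham replicate 3 the call was lost (-0.63, adjusted p = 0.0586). With the muscle marker level as a covariate the adjusted p was 0.173. Lama5, the widespread alpha chain of vessels and epithelia, was at 89.1, 91.7, 93.1, 106 and 100 CPM in sham and at 75.2, 55.6, 84.4, 62.8 and 57.8 CPM after crush, a log2 fold change of -0.52 ± 0.13 (adjusted p = 0.0034) with no overlap. Lama2, the alpha chain of muscle, nerve sheath and vessel membranes, had a log2 fold change of 0.17 (-0.21 to 0.55) and Lama3 one of 0.59 (0.03 to 1.16), and neither passed. Lama3 was at 0.53 to 0.89 FPKM in sham and 1.07 to 1.63 FPKM after crush with AAV-null. Only through that crush group did it meet the rule for listing, 1 FPKM in 4 or more libraries of 1 group. That rule favours a higher estimate over sham.

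**Figure D4:**
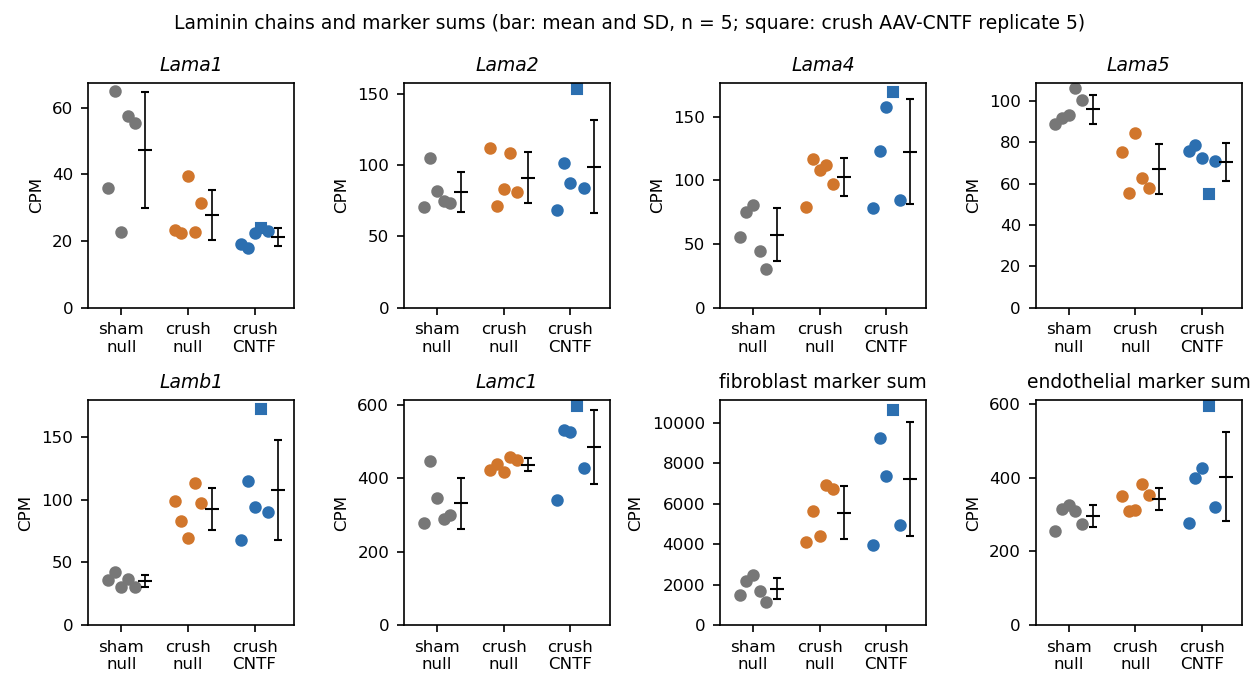
Points are CPM (vertical axis, linear from 0) per library in the 3 groups on the horizontal axis, with the mean and SD of 5 libraries as the bar and crush AAV-CNTF replicate 5 as a square. Lamb1 is higher and Lama5 lower in all 10 crush libraries than in any sham library, and replicate 5 holds the highest Lama2, Lama4, Lamb1 and Lamc1 of its group together with the highest fibroblast and endothelial marker sums.

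The remaining integrin alpha chains did not pass the test after crush with AAV-null. Itga11, a collagen receptor chain, had a log2 fold change of -0.73 (95% interval -1.41 to -0.05), Itga10 one of 0.62 (-0.11 to 1.35) and Itga9, which binds tenascin-C, one of 0.33 (-0.12 to 0.79). Without sham replicate 4, Itga10 passed at 1.00 (adjusted p = 0.033). In the annotation 1739 of the 5186 exon bases of Itga10 are shared with Gm42957 on the same strand, which was not among the listed genes. Itga8, a receptor chain for nephronectin, stood at 0.40 (-0.24 to 1.04), Itga2 at 0.01 (-1.20 to 1.22) and Itga2b, the platelet chain, at -0.10 (-1.32 to 1.13). The intervals of Itga2 and Itga2b, at means of 4.02 and 3.33 CPM in sham, include a 2-fold change in either direction.

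Per length, the mix of chains shifted after crush. The summed FPKM of the integrin alpha chains was 156 to 179 per library in sham and 269 to 351 after crush with AAV-null, and that of the beta chains was 198 to 268 and 345 to 384. Among the beta chains Itgb4 made up 35.8% ± 3.03 (SD, n = 5) of the summed FPKM in sham and 19.4% ± 3.36 after crush, while Itgb5 went from 13.1% ± 2.84 to 27.8% ± 2.68 and Itgb2 from 4.15% ± 0.976 to 12.7% ± 2.02. The ranges over libraries did not overlap for any of these 3 shares. Itgb1 held 30.7% ± 5.10 in sham and 31.8% ± 2.501 after crush, a difference smaller than its spread. With counts not divided by length, its mean share was 20.7% in sham and 28.0% after crush, so a flat share holds only for FPKM. Among the alpha chains Itgam went from 15.4% ± 6.49 to 29.0% ± 3.79 and Itgav from 40.8% ± 6.23 to 33.6% ± 4.63. Shares within a class are a description, since a rise of 1 chain lowers the others.

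For the laminin alpha chains, Lama2 made up 39.6% ± 6.73 (SD, n = 5) of the summed FPKM in sham, Lama4 23.8% ± 5.50, Lama5 23.2% ± 6.55, Lama1 11.6% ± 5.004 and Lama3 1.69% ± 0.583. After crush with AAV-null Lama4 reached 35.8% ± 7.76 and Lama5 11.6% ± 2.76. With AAV-CNTF and crush Lama4 stood at 44.5% ± 7.86, and Lama1 at 4.43% ± 1.22. Lamb1 was 14.2% ± 8.30 of the beta chain FPKM in sham, 27.4% ± 11.9 after crush with AAV-null and 27.1% ± 9.10 after crush with AAV-CNTF. The FPKM depends on the transcript length the quantification assigned in each library, and that length, taken as the count per FPKM relative to the library median, varied 3.97-fold over libraries for Lamb1, 3.36-fold for Itgam and 14.3-fold for Itga2b. For Itgam the group median of this length was 0.913 in sham, 1.196 after crush with AAV-null and 1.66 after crush with AAV-CNTF, so its FPKM and its CPM need not change alike.

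**Figure D5:**
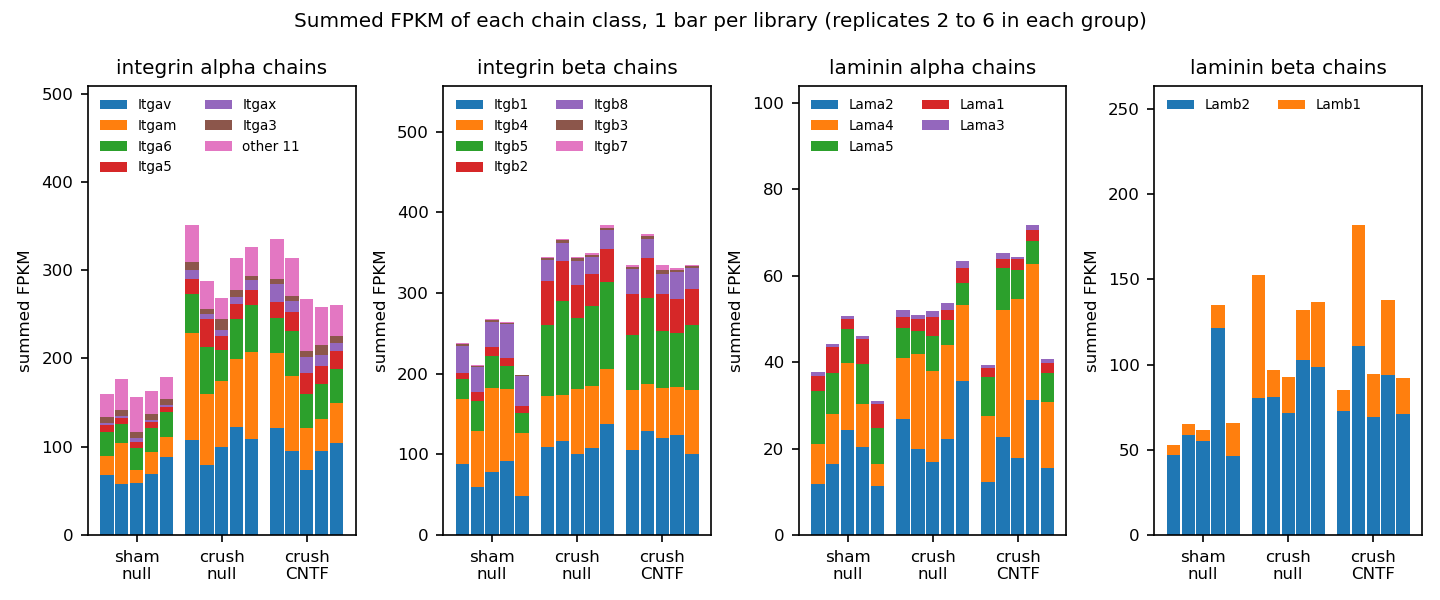
Each bar is 1 library and stacks the FPKM (vertical axis, linear) of the chains of 1 class, with replicates 2 to 6 in order within each group on the horizontal axis and laminin gamma chains left out. Itgb5 and Itgb2 take a larger share and Itgb4 a smaller share of the beta chain bars in both crush groups than in sham.

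Genes that work with these receptors changed in both directions after crush with AAV-null. Of 28 tested linker and signalling genes that join integrins to actin, 13 were higher and 6 lower, with a median log2 fold change of 0.232. The shares over all genes were 14.7% higher and 12.9% lower. Filamin A (Flna) rose by 0.66 ± 0.11 and talin 1 (Tln1), the activator of integrin tails, by 0.33 ± 0.08. Tensin 1 (Tns1) fell by 0.31 on the log2 scale, and the others lower were Tln2, Fermt2, Ptk2, Bcar1 and Tns2. The kindlins moved apart: Fermt3, the kindlin of blood cells, went from 14.8 to 38.0 CPM and Fermt2 from 160 to 123 CPM, and both passed the test. Fermt3 and Fermt2 were picked out after their values were seen.

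Of 14 tested partners of laminin in basement membranes 9 were higher and none lower, with a median log2 fold change of 0.615. Perlecan (Hspg2) rose by 1.01 ± 0.19, Col4a1 by 1.53 ± 0.20 and Col4a2 by 1.43 ± 0.19. Of 18 laminin receptors that are not integrins, or genes that glycosylate them, 4 were higher and 3 lower (median 0.118): Sdc3 rose by 0.94 ± 0.13, and utrophin (Utrn) fell by 0.81 on the log2 scale. Of 16 tested integrin ligands other than laminin 11 were higher and 1, vitronectin (Vtn), was lower, with a median of 1.323. Fibronectin (Fn1) rose by 2.03 ± 0.32, osteopontin (Spp1) by 5.70 ± 0.41 and fibrillin 1 (Fbn1) by 1.30 ± 0.28. Over all genes the median was 0.005, with 14.7% higher and 12.9% lower, and the counts of the non-integrin laminin receptors lie near those shares.

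Among cells that make matrix, the marker sums of fibroblasts and of pericytes and smooth muscle were higher after crush, while that of endothelial cells overlapped sham. Over all genes 14.7% were higher and 12.9% lower in this comparison. The 8 fibroblast and sheath markers summed to 1160 to 2470 CPM in sham and 4100 to 6917 CPM after crush with AAV-null, with 4 of 8 higher and none at a count of 0 in any library. The 9 tested pericyte and smooth muscle markers summed to 375 to 485 and 589 to 811 CPM, with 5 higher and 1 lower. Of 10 endothelial markers Cdh5 was higher and Flt1 lower, with a median log2 fold change of 0.005, and their sums overlapped, at 255 to 326 and 310 to 382 CPM. The part of these cells in the laminin and collagen values was not tested. Of 8 Schwann cell markers 4 were tested, the others, Prx, Pmp2 and Cldn19 among them, were not listed, and Mbp, which oligodendrocytes also express, made up nearly all of their sum. Of 8 platelet markers only Pf4 and Gp1bb were tested and both were higher, at sums of 4.18 to 10.2 CPM in sham and 14.1 to 21.96 CPM after crush. Of 8 neutrophil markers 2 were tested, Csf3r and Retnlg, and both were higher, with Retnlg at a count of 0 in 8 of the 15 libraries. Csf3r, at means of 29.3 CPM in sham and 68.5 CPM after crush with AAV-null, made up nearly all of their sum. S100a8, S100a9, Ly6g, Mpo, Camp and Ngp were not listed, so a rise of neutrophils was not tested. Every listed gene reached 1 FPKM in 4 or more libraries of 1 group. Retnlg, at a mean of 0.0186 CPM in sham, could be listed only through a crush group, so that filter favoured its call over sham.

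The second comparison asked what the CNTF vector changed in crushed nerves. None of the 33 genes passed the test between crush AAV-CNTF and crush AAV-null (edgeR), where 0.0423% of all genes were higher and 0.0141% lower, 8 genes or 0.0564% in all. At an unadjusted p under 0.05 there were 6 of the 33 genes, 4 higher and 2 lower, or 18.2%, against 1091 or 7.69% of all genes, and DESeq2 called 1 of the 33. The median log2 fold change of the 33 genes was 0.07. For most genes the interval was narrow enough to bound a change, and its median distance from the estimate was 0.393 on the log2 scale. For the 6 genes that rose at least 2-fold after crush with AAV-null, the differences between the crush groups were -0.02 (95% interval -0.32 to 0.29) for Itgb2, -0.32 (-0.60 to -0.03) for Itgam, -0.38 (-0.66 to -0.10) for Itgb5, 0.07 (-0.25 to 0.39) for Itga5, 0.84 (0.35 to 1.32) for Itgax and 0.22 (-0.17 to 0.61) for Lamb1. These 6 were chosen by high values in the same crush AAV-null libraries, which can pull the differences downward.

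The 3 genes with the smallest p were Itgal, Itgax and Itgb5. Itgal was at 11.8, 11.7, 8.80, 14.98 and 3.59 CPM in crush AAV-null replicates 2 to 6 and at 22.6, 17.9, 66.3, 15.9 and 16.6 CPM with AAV-CNTF. Its log2 fold change was 1.455 ± 0.39 (SE; adjusted p = 0.201), and DESeq2 gave an adjusted p of 0.036. It was the only gene of the 33 whose crush groups did not overlap, where 0.838% of all genes lay wholly above and 0.712% wholly below. The library of replicate 4 was the highest by far, and without it the log2 fold change was 0.84 (adjusted p = 0.706). Without it and crush AAV-null replicate 6, the lowest of its group, it was 0.62 (adjusted p = 0.799).

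Itgax was at 38.8, 18.8, 18.9, 29.5 and 34.2 CPM in crush AAV-null and at 60.3, 48.4, 65.1, 45.4 and 30.9 CPM in crush AAV-CNTF. The log2 fold change was 0.84 ± 0.23 (adjusted p = 0.229). All but replicate 6 of the AAV-CNTF libraries were above the highest AAV-null library. Itgb5 was at 247, 309, 238, 264 and 303 CPM in crush AAV-null and at 186, 248, 195, 183 and 233 CPM in crush AAV-CNTF, a log2 fold change of -0.38 ± 0.13 (adjusted p = 0.437). Only replicate 3 of the AAV-CNTF libraries reached the AAV-null range. Itgam, the neighbour of Itgax, had a log2 fold change of -0.32 ± 0.14 (adjusted p = 0.589), and the ratio of the CPM of Itgax to that of Itgam was 0.069 to 0.170 in the crush AAV-null libraries, 0.183 to 0.377 in the crush AAV-CNTF libraries and 0.0976 to 0.244 in sham. The ratio was chosen after the values were seen and has no test.

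Of the 7 leukocyte chains, Itgal, Itga4, Itgb7 and Itgax had their highest value in the same library, crush AAV-CNTF replicate 4. Itgb2, Itgam and Itgae were instead highest of that group in replicate 2. They stood at 124, 215 and 7.97 CPM there, against 110, 173 and 7.77 CPM in replicate 4. Itga5, Itga9 and Itgb3, not counted as leukocyte chains, were also highest of the group in replicate 4. Itga4 was at 50.1, 40.7, 92.9, 48.4 and 27.4 CPM in that group (0.79 ± 0.29 against crush AAV-null, adjusted p = 0.453, and 0.47 without replicate 4). Itgb7 was at 6.61, 4.22, 15.9, 4.37 and 2.95 CPM. Itgal, Itga4, Itgb7 and Itgax were next highest of that group in replicate 2, at 22.6, 50.1, 6.61 and 60.3 CPM. Over replicates 2 to 6 the T and NK cell marker sum was 54.2, 24.2, 69.9, 22.4 and 19.7 CPM. This sum was likewise highest in replicate 4 and next highest in replicate 2. Of 8 such markers 6 were tested, Cd3d and Cd8a were not among the listed genes, Nkg7 had a count of 0 in 4 libraries and Cd2 in 1, and none of the 6 passed between the crush groups. Cd4 had means of 3.94 and 10.9 CPM in the crush groups (adjusted p = 0.357) and Cd3e means of 2.88 and 11.9 CPM (adjusted p = 0.279). The part of these cells in the integrin values was not tested.

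Lama4, Lamb1 and Lamc1 were highest in another library. In crush AAV-CNTF replicates 2 to 6 Lama4 was at 78.5, 123, 157, 169 and 84.4 CPM and Lamb1 at 68.1, 115, 94.1, 172 and 89.9 CPM. Lamc1 was at 340, 533, 525, 596 and 430 CPM. All 3 were highest in replicate 5 and lowest in replicate 2, while Lama5 was lowest in replicate 5, at 54.8 CPM, and Lama3 highest in replicate 3, at 10.7 CPM. The fibroblast and sheath marker sum ran 3945, 9264, 7355, 10647 and 4927 CPM and the endothelial marker sum 276, 400, 425, 593 and 321 CPM over the same libraries, also highest in replicate 5 and lowest in replicate 2. No list of receptor partners, basement membrane partners, non-integrin laminin receptors or other ligands had a gene past the threshold between the crush groups.

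Against sham, crush with AAV-CNTF gave 16 higher and 4 lower genes of the 33, and 13 did not pass, where 17% of all genes were higher and 14.3% lower, 31.3% in all. The libraries lay wholly above sham for 11 genes and wholly below for 3, against 11.9% and 11.2% of all genes, and the median log2 fold change was 0.511 (0.005 over all genes). This comparison shares the sham libraries with the first, so the values stand side by side and are not independent. The 12 genes higher after crush with AAV-null were all higher here, and Itgal, Itga4, Itgb7 and Itga1 were added. That these 4 passed in 1 comparison and not in the other is no test of a difference between the crush groups, in which none passed.

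Itgax rose by 2.25 ± 0.24 on the log2 scale over sham (adjusted p = 5.18e-07), Itgb2 by 2.05 ± 0.15 (5.7e-09), Itgam by 1.62 ± 0.14 (3.78e-08) and Itgb5 by 1.13 ± 0.14 (1.88e-06). Itga5 rose by 1.53 ± 0.16 (adjusted p = 3.19e-07), Lamb1 by 1.62 ± 0.19 (1.8e-06) and Lama4 by 1.10 ± 0.23 (0.00103). Smaller increases were those of Itgb1 at 0.69 ± 0.11 (adjusted p = 3.04e-05), Itga6 at 0.55 ± 0.11 (0.000455), Lamc1 at 0.55 ± 0.14 (0.00445), Itgav at 0.51 ± 0.09 (9.76e-05) and Itgb3 at 0.62 ± 0.19 (0.0149). Of these, the call of Itgb3 was lost without crush AAV-CNTF replicate 4 (adjusted p = 0.0582) and with the muscle covariate (0.58, adjusted p = 0.0979). Itgal rose by 1.55 ± 0.39 (adjusted p = 0.00452), and by 0.94 without crush AAV-CNTF replicate 4 (adjusted p = 0.033). Itga4 rose by 1.11 ± 0.29 (adjusted p = 0.00536). Of the 6 tested T and NK cell markers Cd3e passed over sham too (1.66 ± 0.60, adjusted p = 0.0397), and its part in the values of Itgal, Itga4 and Itgb7 was not tested.

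Itgb7 ran from 0.12 to 1.27 FPKM in sham, with a median of 0.53. It met the rule for listing, 1 FPKM in 4 or more libraries of 1 group, only in crush groups. That filter favours a call over sham. Itgae and Itga2 met the rule only in the crush AAV-CNTF group, and Lama3 only in the crush AAV-null group. The log2 fold change of Itgb7 over sham was 1.86 ± 0.62 (adjusted p = 0.0261), and the call was lost without crush AAV-CNTF replicate 4 (1.27, adjusted p = 0.147) or without any one of sham replicates 3, 5 and 6 (0.0529, 0.0598 and 0.0535). With the muscle covariate it was 1.61 (adjusted p = 0.141). Itga1, a collagen and laminin receptor chain, had one of 0.53 ± 0.16 (adjusted p = 0.0165), lost without crush AAV-CNTF replicate 5 (0.45, adjusted p = 0.0534) and with the muscle covariate (0.51, adjusted p = 0.0901), and the annotation places 685 of its exon bases under Gm49395 as well. Itga7, the laminin receptor chain of muscle, lay above sham in all 5 AAV-CNTF libraries but did not pass (0.42 ± 0.26, adjusted p = 0.231). Sham replicate 3, at 7.01 CPM against 12.5 to 14.4 CPM in the other sham libraries, stood apart.

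The 4 genes lower than in sham were the same as after crush with AAV-null. Lama1 was at 19.2, 17.9, 22.4, 23.8 and 23.0 CPM in crush AAV-CNTF replicates 2 to 6, a log2 fold change of -1.16 ± 0.23 (adjusted p = 0.000597), with sham replicate 4 at 22.7 CPM inside that range. Itgb4 stood at -0.52 ± 0.10 (adjusted p = 0.000596), Itgb8 at -0.46 ± 0.10 (0.000998) and Lama5 at -0.44 ± 0.12 (0.00925), each without overlap. With the muscle marker level as a covariate only Itgb4 of the 4 remained past the threshold, while the log2 fold changes were -0.80 for Lama1 (adjusted p = 0.0579), -0.30 for Itgb8 (0.0739) and -0.34 for Lama5 (0.171). With that covariate 1314 of all genes were lower in this comparison, against 2031 or 14.3% without it. Of the 7 tested muscle markers 4 were lower than in sham in this comparison, Ttn the most abundant of them (-2.08 ± 0.74, adjusted p = 0.0374).

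The receptor partners gave similar counts against sham with AAV-CNTF. Of the linker and signalling genes 12 of 28 were higher and 3 lower, of the basement membrane partners 12 of 14 were higher and none lower, of the non-integrin laminin receptors 4 of 18 were higher and 2 lower, and of the other ligands 11 of 16 were higher and none lower. These stand against 17% higher and 14.3% lower over all genes, and the counts of the non-integrin laminin receptors lie near those shares. Zyxin (Zyx), a protein of adhesion sites, rose by 0.56 ± 0.08, Hspg2 by 1.32 ± 0.19 and Fbn1 by 1.75 ± 0.28. Sparc, a collagen-binding matrix protein, rose by 0.29 ± 0.09.

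The authors' deposited table, which also gives adjusted p-values and a direction call for each pair of groups, has 16 of the 33 genes under 0.05 for crush AAV-null against sham, 20 for crush AAV-CNTF against sham and 0 between the crush groups. By the direction call in the authors' deposited table, 10 were up and 1 down in the first, 12 up and 1 down in the second and none in the third, and the gene called down was Lama1 both times. That call is stricter than the adjusted p alone. Itgb4, Itgb8 and Lama5 were lower at an adjusted p under 0.05 against sham in both, without a call. In the first, Itgav at a log2 fold change of 0.571 had no call and Itgb3 at 0.639 was up.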

How the data were processed

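The 33 genes, the lists of partner and marker genes and the tests were chosen with earlier results of these data known. One table of 14237 genes was used. The tools named in the submitters' processing notes are Trimmomatic 0.32 (a read trimmer), STAR 2.5.3a (an aligner), RSEM 1.2.31 (a quantifier), DESeq2 and R 3.2.3, with the mm10 build. The authors deposited RSEM expected counts and FPKM for each library. The authors' deposited table also holds log2 fold changes, adjusted p-values and direction calls for each pair of groups. Every gene in it reached 1 FPKM in 4 or more libraries of 1 group, so genes low everywhere are missing from it. Neither the annotation version nor whether counting used strand is given in the sources. The labels name 2 library kits, for 20 and 500 ng of RNA, and which library had which was not given.

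Expected counts, of which 13.7 to 18.3% per library were not whole (tolerance 0.005), were rounded. The edgeR 4.0.16 quasi-likelihood test (R 4.3.3) was fitted to 15 libraries with 3 group means after trimmed-mean normalization and edgeR's filter on low counts, which left 14194 genes. P-values were adjusted by Benjamini-Hochberg over all of these, with a threshold of 0.05. Standard errors are the log2 fold change over the root of F, and intervals are 95%. The common biological coefficient of variation was 0.371. P-values measure the spread between these libraries. Comparisons with limma 3.58.1 (voom with quality weights) and DESeq2 1.42.0, other scalings and filters, a replicate block, a muscle marker covariate and each library left out were alternatives. The fit was also tested on simulated data.

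Genes named were the members, and up to 3 genes of each list: those that passed with the highest level, or else the most abundant. Gene positions were taken from GENCODE M21, where 14215 identifiers were found once the version was left out. Whether replicate numbers pair the samples is given with the alternatives. Single values of a few genes that enter the counts are not reported here or drawn.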

Additional observations from a re-analysis of the deposited data

Results flagged for a closer look

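Of 99 groups of 5 values (33 genes in 3 groups), 4 held a library that stood apart from the other 4 by Dixon's test, and chance gives about 1 in 20, or 4.95. Itga5 was at 120.09 CPM in crush AAV-null replicate 3, against 62.5 to 73.5 CPM in the others. Itga7 was at 7.01 CPM in sham replicate 3, against 12.5 to 14.4 CPM. Crush AAV-CNTF replicate 4 stood apart for Itgal, at 66.3 CPM against 15.9 to 22.6 CPM, and for Itgb7, at 15.9 CPM against 2.95 to 6.61 CPM. The same library had the highest T and NK cell marker sum, 69.9 CPM, whose part in these values was not tested.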

How the results depend on the processing

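Each comparison was refitted under 24 settings, 15 of which left out 1 library. Of 39 gene results, those past the threshold with edgeR and those of Itgal, Itgax and Itgb5 between the crush groups, 29 kept their direction and side of the threshold in all of them, 9 lost a call in at least 1, 1 gained a call and none changed sign. Of the 60 other gene results, none of which passed, 23 changed sign in at least 1 setting and 1 gained a call. Of the 33 genes, DESeq2 called 1 higher between the crush groups, Itgal, against 0 with edgeR. With the muscle marker level as a covariate, 1 gene was lower in crush AAV-CNTF than in sham, against 4 without it, and 13 were higher, against 16. After crush with AAV-null 10 were higher and 3 lower with it, against 12 and 4. The calls over all genes fell too. For crush AAV-CNTF against sham they were 1632 higher and 1314 lower with the covariate, against 2406 and 2031 without it. For crush AAV-null against sham they were 1549 and 1358, against 2087 and 1825. The covariate adjusts for a difference that goes with the groups, and the cause of the lost calls was not tested. One setting was chosen after seeing the data: it left out replicate 4 of crush AAV-CNTF together with replicate 6 of crush AAV-null. Over all genes, the calls between the crush groups were 6 higher and 2 lower with edgeR, 59 and 24 with DESeq2, and 38 and 3 without crush AAV-CNTF replicate 6. With the replicate number as a block, the 33 genes gave 12 higher and 4 lower, 0 and 0, and 16 and 4 in the 3 comparisons, as without it, and all genes gave 14 higher and 2 lower between the crush groups. Same-numbered libraries of different groups had correlations of deviations from -0.05 to 0.11 over 15 pairs, and 3 pairs correlated best with their own number, so the numbers were not taken as pairing. Of 45 shares of class FPKM, 23 moved by more than their SD with counts not divided by length and 0 by leaving out a library. Depth limits Itga2, Itga2b and Itgae, at means under 6 CPM in every group, whose intervals include a 2-fold change in each comparison.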
